A study of Homo sapiens with 6 samples.

Results

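Tight junctions were examined through 9 genes, CLDN1, CLDN3, CLDN4, CLDN7, CLDN12, OCLN, TJP1, CGN and F11R, which were taken by symbol from the 18236 genes of the expression table. HCT116 is a colorectal cancer cell line that carries one normal and one oncogenic allele of CTNNB1, which encodes β-catenin, and each line studied here keeps a single allele. In wild-type cells (HCT116-CTNNB1WT/-) the mutant allele was disrupted, and in mutant cells (HCT116-CTNNB1-/Δ45) the wild-type allele was disrupted. Both lines were grown in McCoy-5A medium with serum, received no treatment, and were sequenced as 3 samples each, numbered 1 to 3 in the labels. Each genotype is 1 line, so the allele and any other difference between the lines cannot be told apart. Whether a line is a single clone and whether its samples were separate cultures is not given in the sources used here, and the spread behind each p-value may be technical only.

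The tight junction is the belt of membrane contacts nearest the lumen that seals the space between epithelial cells and separates their apical from their lateral membrane. Claudins are four-pass membrane proteins that form its strands, with some members tightening the seal and others forming pores for ions or water, while occludin and immunoglobulin-like proteins such as JAM-A lie beside them. Inside the cell, plaque proteins of the ZO family and cingulin tie these membrane proteins to actin. In colon epithelium claudins of both kinds are present, and factors that drive epithelial-to-mesenchymal transition are known as repressors of claudin and occludin genes.

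Expression is given in normalized counts, the reads of a gene over the size factor that the authors gave its sample. Reads in genes numbered 29.5, 41.4 and 21.8 M in the wild-type samples and 57.9, 33.5 and 35.2 M in the mutant samples. In such bulk RNA, fewer cells that express a gene and less RNA per cell cannot be told apart. Both samples numbered 1 stood apart. Over all 14539 genes tested, the SD of the log2 difference between mutant and wild-type was 0.51 for the samples numbered 1, against 1.42 and 1.46 for those numbered 2 and 3, and 82.7% of genes had a smaller gap in the samples numbered 1 than in those numbered 2. Values for the tight junction genes without these 2 samples are therefore given as well. CTNNB1 counts sum over any allele and were 18594, 12532 and 12923 in wild-type and 18704, 17838 and 18582 in mutant cells. Over all samples the lines did not differ beyond the spread (log2 fold change 0.35, SE 0.18, limma adjusted p = 0.150). Wild-type sample 1 lay among the mutant samples, while wild-type samples 2 and 3 were below all of them. The fit without both samples numbered 1 also covered CTNNB1, but its result is not given here, so equal levels in the lines cannot be concluded. The epithelial markers EPCAM, KRT8, KRT18, KRT19 and CDH1 were all present, with summed levels of 57729 to 60651 normalized counts in wild-type and 44770 to 49637 in mutant cells. The sum hides single genes. CDH1 (log2 fold change -1.37, limma adjusted p = 0.0335) and EPCAM (-0.82, 0.0462) were called lower, beside 10.0% of all genes tested. KRT8 (-0.29), KRT19 (-0.53) and KRT18 (0.49) were not called. Of 5 markers each, the sums for endothelium were 118 to 154 and 69.7 to 90.4, mostly from VWF, and those for fibroblasts 3577 to 4704 and 1977 to 4477, mostly from COL1A1. None of these markers was at 0 in all samples, and the part of other cell types in the results was not tested.

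Upstream sequences of 4 genes are shown because EMT factors of the SNAI and ZEB families bind the E-box letters CACCTG, which read CAGGTG on the other strand, and because 3 of these genes fell and TJP1 rose in mutant cells. Each run is the 250 bases before the transcription start in RefSeq (GRCh38.p14), read 5′ to 3′ on the strand of the gene. Capitals mark an E-box or, in CGN, the grainyhead letters. CLDN7 is chr17:7263214-7263463 on the minus strand, OCLN chr5:69492297-69492546 on the plus strand, TJP1 chr15:29969050-29969299 on the minus strand and CGN chr1:151511137-151511386 on the plus strand.
CLDN7: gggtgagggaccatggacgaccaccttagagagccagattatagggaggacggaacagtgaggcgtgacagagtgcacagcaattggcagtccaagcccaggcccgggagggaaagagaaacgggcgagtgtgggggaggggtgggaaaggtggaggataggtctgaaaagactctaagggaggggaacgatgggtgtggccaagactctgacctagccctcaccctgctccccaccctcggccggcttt
OCLN: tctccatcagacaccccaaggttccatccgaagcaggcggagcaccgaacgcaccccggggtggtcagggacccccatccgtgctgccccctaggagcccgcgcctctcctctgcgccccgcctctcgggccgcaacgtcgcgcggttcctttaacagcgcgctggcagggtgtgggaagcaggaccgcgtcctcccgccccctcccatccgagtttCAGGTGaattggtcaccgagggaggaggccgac
TJP1: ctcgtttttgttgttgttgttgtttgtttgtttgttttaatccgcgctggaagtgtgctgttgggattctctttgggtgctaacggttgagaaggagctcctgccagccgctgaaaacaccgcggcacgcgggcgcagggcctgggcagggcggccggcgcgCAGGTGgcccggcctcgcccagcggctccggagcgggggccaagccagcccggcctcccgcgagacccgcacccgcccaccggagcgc
CGN: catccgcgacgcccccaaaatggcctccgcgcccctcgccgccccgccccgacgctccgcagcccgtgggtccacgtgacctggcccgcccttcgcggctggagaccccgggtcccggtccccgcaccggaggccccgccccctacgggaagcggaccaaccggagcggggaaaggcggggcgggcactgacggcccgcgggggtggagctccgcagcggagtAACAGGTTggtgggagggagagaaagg
A window was given for 8 of the 9 genes, with F11R named only. The E-box letters stood in OCLN, with their first base 33 bases before the start, and in TJP1, 88 bases before it, and in none of the windows of CLDN1, CLDN3, CLDN4, CLDN7, CLDN12 and CGN. They stood in 17.5% of the 27305 promoter windows of the genome. TJP1 was higher and OCLN lower in mutant cells, and whether the letters bear on either change was not tested. The ETS core GGAAG, or CTTCC on the other strand, bound by factors such as ELF3, was found in CLDN3, CLDN4, CLDN12, OCLN, TJP1 and CGN but not in the windows of CLDN1 and CLDN7, and in 65.1% of all windows. The grainyhead letters AACCGGTT, AACCTGTT or AACAGGTT, which cover both strands, stood only in CGN among the 8 windows, 27 bases before the start, and in 0.696% of all windows. The windows cover 1 start per gene, although TJP1 and others have several in the annotation, and a match describes letters, not binding.

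The first comparison asked which tight junction genes differed between cells with mutant and with wild-type β-catenin. All 9 genes passed the filter on low values (10 normalized counts or more on average), and 5 were lower, 1 was higher and 3 were not called in mutant cells at an adjusted p under 0.05 (limma on log2 values with a pseudocount of 1, Benjamini-Hochberg over all genes tested). Over all genes tested, 10.0% were called lower and 17.3% higher. CLDN7, CLDN4, F11R, OCLN and CGN fell, TJP1 rose, and CLDN12, CLDN3 and CLDN1 did not pass. The 3 samples of each line did not overlap for the 6 called genes, a pattern that 19.1% of all genes showed in the lower and 26.6% in the higher direction. The median log2 fold change, mutant over wild-type, was -0.58 over the 9 genes and 0.24 over all genes tested. With TMM factors, which rescale samples on the bulk of their genes, the median of all genes was 0.01, so each fold change is also given relative to the median of all genes. The calls depended on which sample was left out. CLDN7 alone was called without mutant sample 2 or without mutant sample 3, and none of the 9 genes was called by limma without wild-type sample 2 or without wild-type sample 3. In each of these last 2 fits 5 were lower and 1 was higher at an unadjusted p under 0.05, and all 6 kept their direction. Without wild-type sample 1 or mutant sample 1, the 6 calls remained. The share of all genes called with 1 sample left out was not counted, so these losses do not single out the tight junction genes. Without both of these, 6 of the 9 genes were lower and 1 was higher, in a fit that called 29.1% of all genes lower and 53.1% higher. The log2 fold changes were then -1.79 for CLDN7, -1.17 for CLDN4, -0.72 for OCLN and -0.57 for CGN, close to those with all samples, and 0.0034 for CLDN3.

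**Figure D1:**
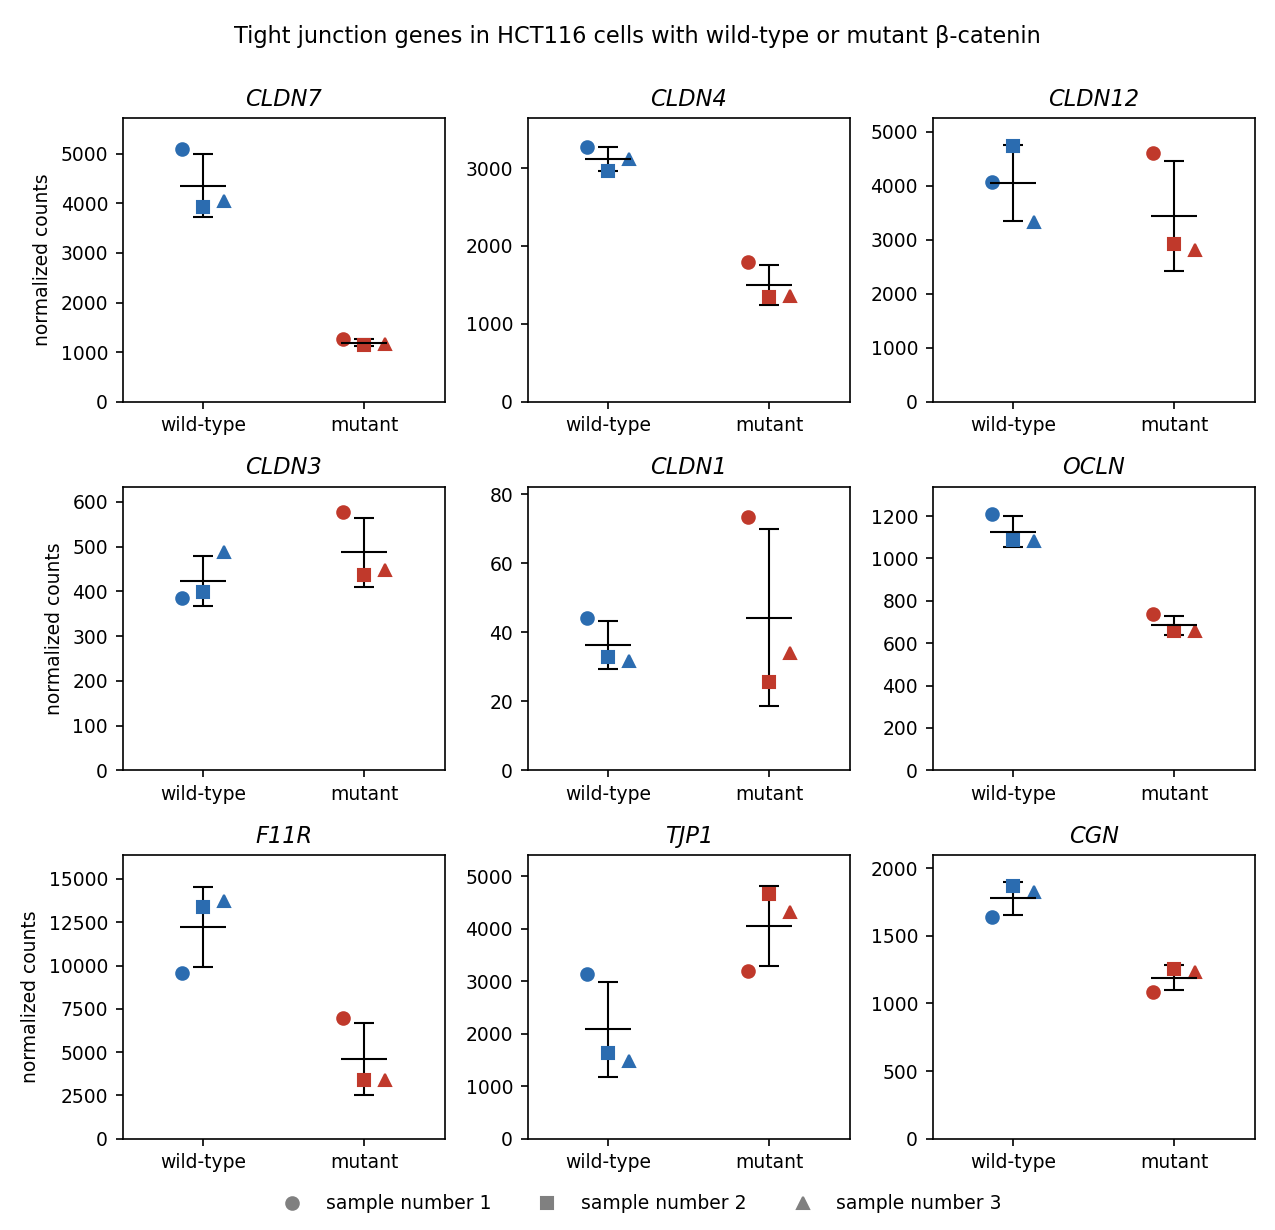
Normalized counts (linear axes from 0) of the 9 tight junction genes in each of the 3 wild-type (blue) and 3 mutant (red) samples, with the mean (long line) and SD (bars), and symbols for the sample number. The lines separate for CLDN7, CLDN4, OCLN, F11R, TJP1 and CGN, and overlap for CLDN12, CLDN3 and CLDN1, while TJP1 is 3135 in wild-type sample 1 and 3202 in mutant sample 1.

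CLDN7 encodes a claudin of the basolateral membrane and tight junction of gut epithelium that binds EpCAM. It had 5095, 3927 and 4053 normalized counts in wild-type samples 1, 2 and 3, and 1267, 1144 and 1168 in the mutant samples. The lines were far apart, with little spread among the mutant samples. Its mean was 4359 ± 641 (SD, n = 3) in wild-type and 1193 ± 65.2 (SD, n = 3) in mutant cells. The log2 fold change was -1.86 (SE 0.16, limma adjusted p = 0.00597), a 3.63-fold decrease, and -2.104 relative to the median of all genes. The same-number differences were -2.01, -1.78 and -1.79 on the log2 scale, so that the decrease was present in the samples numbered 1 as well. The gene lies on the minus strand of chromosome 17, from 7163222 to 7167302 (GRCh37), and its last 38 bases overlap ELP5 on the opposite strand, while a readthrough model of the annotation overlaps it on its own strand. The strand setting of the authors' counting is not given in the sources used here, so reads in these overlaps cannot be assigned with certainty.

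CLDN4, a sealing claudin of colon and other epithelia, had 3270, 2965 and 3117 normalized counts in wild-type and 1792, 1344 and 1352 in mutant samples. The lines did not overlap, and mutant sample 1 was the highest of its line. The means were 3118 ± 152 and 1496 ± 256 (SD, n = 3 each), with a log2 fold change of -1.07 (SE 0.17, limma adjusted p = 0.0270), 2.101-fold lower. CLDN3, its close relative and neighbour on chromosome 7, is also a sealing claudin and had 384, 398 and 488 normalized counts in wild-type and 577, 437 and 447 in mutant samples. These values overlapped, and the log2 fold change of 0.20 (SE 0.22, limma adjusted p = 0.484) did not pass. CLDN3 lies at 73183327 to 73184600 on the minus strand and CLDN4 at 73213872 to 73247020 on the plus strand (GRCh37). Since the neighbouring genes can be compared within a sample, the log2 ratio of CLDN4 over CLDN3 was taken. It was 3.09, 2.90 and 2.68 in wild-type and 1.64, 1.62 and 1.60 in mutant samples, with a difference of -1.27 between the means. No sample overlapped, and the exact two-sided permutation test gave p = 0.1, the smallest that 3 against 3 samples allow (0.1 also after adjustment over the 3 ratios tested). The ratio was chosen with earlier results of these data known.

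CLDN12, a claudin that lacks the usual PDZ-binding end, had 4075, 4737 and 3336 normalized counts in wild-type and 4613, 2917 and 2804 in mutant samples. Mutant sample 1 lay among the wild-type samples, and the log2 fold change was -0.26 (SE 0.24, limma adjusted p = 0.397). Without both samples numbered 1, CLDN12 was the further gene called lower, at -0.48 (limma adjusted p = 0.0217). Its annotated span on chromosome 7 (90013035 to 90142716, GRCh37) overlaps GTPBP10 and CDK14 on the same strand, and part of its reads may come from them. GTPBP10 (log2 fold change 0.99, limma adjusted p = 0.0485) and CDK14 (1.31, 0.0429) were both called higher in mutant cells. Their part in the level of CLDN12 was not tested. CLDN1, a barrier claudin and a described target of β-catenin and TCF in colorectal cancer cells, was nearly absent. It had 36, 38 and 19 reads in wild-type and 116, 23 and 32 in mutant samples, or 44.2, 32.8 and 31.6 against 73.4, 25.4 and 34.0 normalized counts. Mutant sample 1 was the highest and mutant sample 2 the lowest of all 6. The log2 fold change of 0.15 (SE 0.45, limma adjusted p = 0.795) had a standard error above its size and turned to -0.28 without mutant sample 1, to -0.13 without both samples numbered 1 and to -0.07 with TMM factors.

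OCLN encodes occludin, the four-pass MARVEL protein of the tight junction, and had 1212, 1086 and 1084 normalized counts in wild-type and 735, 659 and 658 in mutant samples. The lines did not overlap, and samples 2 and 3 of each line were nearly equal. The means were 1127 ± 73.0 and 684 ± 44.3 (SD, n = 3 each), with a log2 fold change of -0.72 (SE 0.17, limma adjusted p = 0.0404), 1.65-fold lower. The difference between samples of the same number was -0.72 for each of the 3 numbers. OCLN lies on the plus strand of chromosome 5, from 68788119 to 68853931 (GRCh37), and a partial copy, OCLNP1, is annotated, so the assignment of its reads is uncertain. F11R encodes JAM-A, an immunoglobulin-like adhesion protein that recruits polarity proteins to young junctions, and lies on the minus strand of chromosome 1 from 160965001 to 160991133 (GRCh37). A protein-coding readthrough model overlaps 23387 of these bases on the same strand, so the assignment of its reads is uncertain too. It had 9588, 13406 and 13752 normalized counts in wild-type and 6974, 3385 and 3400 in mutant samples. Both samples numbered 1 lay toward the other line, though without overlap. The log2 fold change was -1.49 (SE 0.31, limma adjusted p = 0.0404), 2.80-fold lower, and -2.0005 without the samples numbered 1. The same-number differences were -0.46, -1.99 and -2.02.

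The plaque genes moved in opposite directions. TJP1 encodes ZO-1, the scaffold that binds claudins, occludin and JAM-A and links them to actin, and had 3135, 1629 and 1489 normalized counts in wild-type and 3202, 4655 and 4326 in mutant samples. The lines were separated by the small step between the samples numbered 1. The means were 2084 ± 913 and 4061 ± 762 (SD, n = 3 each), and the log2 fold change was 1.03 (SE 0.31, limma adjusted p = 0.0471), 2.04-fold higher. The same-number differences were 0.03, 1.51 and 1.54, and without the samples numbered 1 the log2 fold change was 1.53. The higher level thus rested on samples 2 and 3 of each line. CGN encodes cingulin, a plaque protein that binds ZO-1 and myosin, and had 1636, 1870 and 1824 normalized counts in wild-type and 1086, 1256 and 1231 in mutant samples. The lines did not overlap, with means of 1777 ± 124 and 1191 ± 91.5 (SD, n = 3 each). The log2 fold change was -0.58 (SE 0.16, limma adjusted p = 0.0431), 1.49-fold lower, with same-number differences of -0.59, -0.57 and -0.57. TJP1 lies on the minus strand of chromosome 15 from 29991571 to 30261118 and CGN on the plus strand of chromosome 1 from 151482986 to 151511168 (GRCh37).

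**Figure D2:**
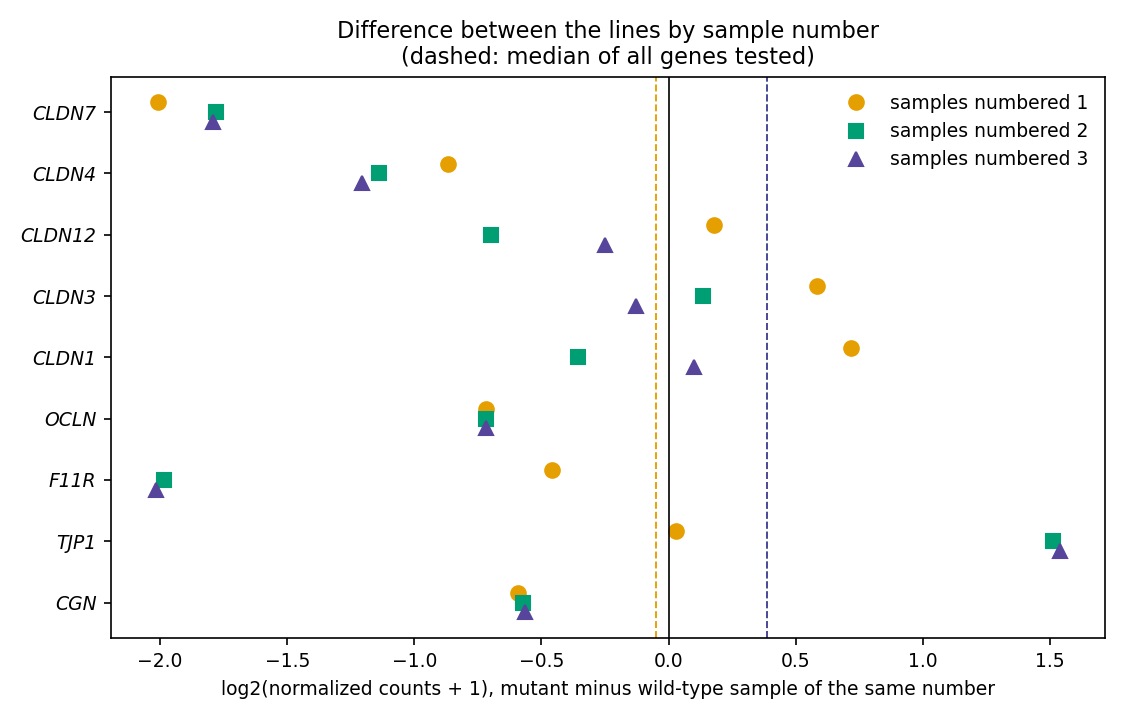
Difference in log2(normalized counts + 1), mutant minus wild-type sample of the same number, for the 9 genes (circles, squares and triangles for samples numbered 1, 2 and 3). Dashed lines mark the median of all genes tested (-0.05 for number 1 and 0.39 for numbers 2 and 3), and the differences coincide for OCLN and CGN but lie apart for F11R (-0.46 against -1.99 and -2.02) and TJP1 (0.03 against 1.51 and 1.54).

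The same genes were tested with count models on the reads recovered from the normalized values. With the quasi-likelihood test of edgeR, where 11.2% of all genes were called lower and 12.3% higher, CLDN7, CLDN4, F11R, OCLN and CGN were again lower, and TJP1 was not called (log2 fold change 0.75, edgeR adjusted p = 0.0567). With DESeq2, where 20.6% of all genes were called lower and 21.7% higher, all 6 genes were called in the same directions. Relative to the median of all genes in the limma fit, the log2 fold changes were -2.104 for CLDN7, -1.73 for F11R, -1.32 for CLDN4, -0.96 for OCLN, -0.82 for CGN, -0.50 for CLDN12, -0.09 for CLDN1, -0.05 for CLDN3 and 0.78 for TJP1. The genes that fell therefore stood further from the bulk of genes than from 0, and TJP1 stood nearer to it.

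The order of the levels was taken per kb of canonical transcript, since genes differ in length. In wild-type cells CLDN7 (2827 ± 416 normalized counts per kb) and F11R (2640 ± 498) were the most abundant, within each other's spread, followed by CLDN4 (1839 ± 89.9) and CLDN12 (1146 ± 198). CGN (348 ± 24.2), CLDN3 (332 ± 44.2) and TJP1 (290 ± 127) lay close together, OCLN was at 182 ± 11.8 and CLDN1 at 10.5 ± 2.01 (SD, n = 3 throughout). In mutant cells the top of this order closed up. F11R (989 ± 446), CLDN12 (975 ± 287), CLDN4 (883 ± 151) and CLDN7 (774 ± 42.3) were within each other's spread. Mutant sample 1 raised the means of F11R (6974 normalized counts against 3385 and 3400) and CLDN12 (4613 against 2917 and 2804). By their means TJP1 (565 ± 106), CLDN3 (382 ± 61.2), CGN (234 ± 17.9), OCLN (111 ± 7.17) and CLDN1 (12.8 ± 7.42) followed. CLDN7 was thus the highest of the claudins named in wild-type cells and was below CLDN12 and CLDN4 by their means in mutant cells.

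The make-up of the claudins was described over the 18 claudin genes in the table. Their summed level was 7348, 6403 and 6215 normalized counts per kb in wild-type and 4123, 3291 and 3314 in mutant samples, without overlap (exact two-sided permutation p = 0.1, the smallest possible). CLDN7 made up 42.3% ± 2.60 of this sum in wild-type and 21.8% ± 1.61 in mutant cells (SD, n = 3 each). The share of CLDN4 was 27.7% ± 1.70 and 24.6% ± 0.90, and that of CLDN12 was 17.3% ± 3.18 and 26.9% ± 4.17. CLDN3 took 5.05% ± 1.04 and 10.7% ± 0.29, and CLDN6, a claudin mostly of embryonic epithelia, 3.16% ± 0.53 and 8.58% ± 3.19. Shares of 1 sample sum to a fixed total, so a larger share of CLDN3 or CLDN12 is no rise in level. CLDN2, which forms pores for cations and water and is typical of leaky epithelia, went from 0.0928% ± 0.0274 to 0.777% ± 0.0532. It had 27.0, 13.8 and 14.99 normalized counts in wild-type and 94.2, 70.8 and 81.7 in mutant samples and was the claudin called higher (log2 fold change 2.14, SE 0.37, limma adjusted p = 0.0314). The log2 ratio of CLDN2 over CLDN7 was -7.93 ± 0.32 in wild-type and -3.87 ± 0.13 in mutant cells (exact permutation p = 0.1). CLDN2 nonetheless remained a small part of the claudin sum in every sample.

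**Figure D3:**
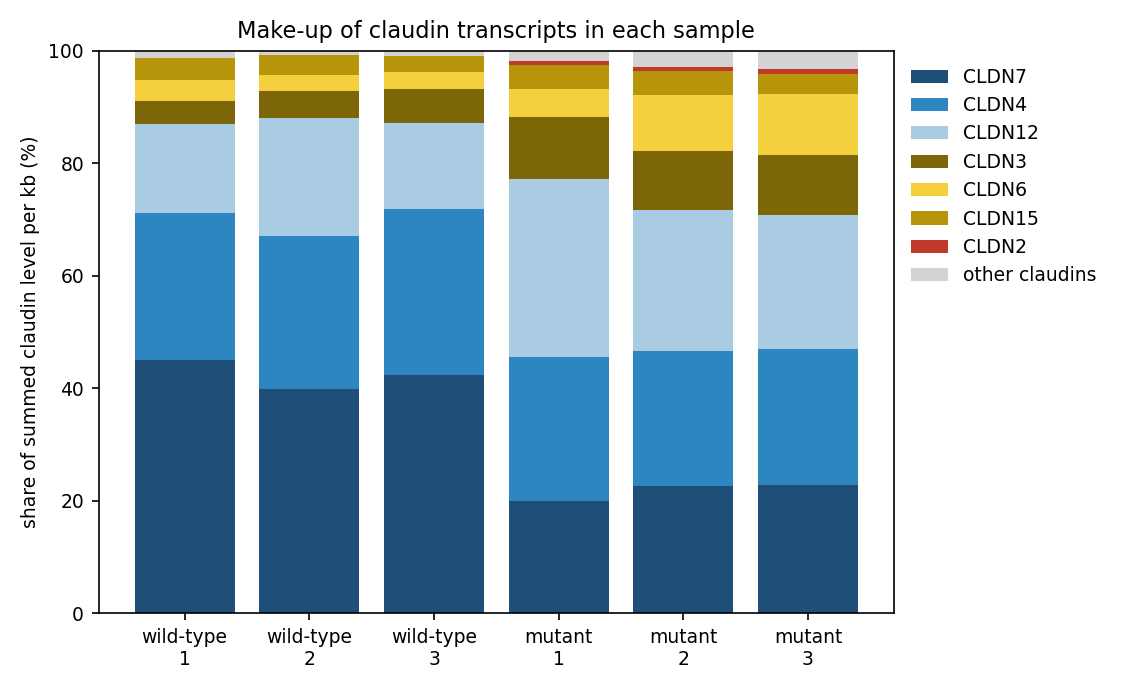
Share (%) of each claudin in the summed level per kb of the 18 claudins, stacked to 100 for each sample. CLDN7 takes 39.8% to 45.0% in wild-type and 19.9% to 22.9% in mutant samples, CLDN3, CLDN6 and CLDN12 take larger shares in mutant samples, and CLDN2 is visible as a thin band there.

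The 9 genes were then set beside the other genes of the tight junction. Of 52 symbols for claudins, MARVEL, immunoglobulin-like and plaque proteins, 45 were in the table and 34 were tested, with 8 lower, 4 higher and 22 not called and a median log2 fold change of 0.09. Without the 9 genes, 25 were tested, of which 3 were lower, 3 were higher and 19 were not called, with a median of 0.22 beside 0.24 over all genes. Beside 10.0% lower and 17.3% higher over all genes, these counts were near the background. Without both samples numbered 1, 12 of the 34 were lower and 15 higher, where 29.1% and 53.1% of all genes were. The 3 that fell were LSR, TJP3 and INADL. LSR encodes the angulin of contacts where 3 cells meet, and it went from 10507, 11389 and 12633 to 4932, 5329 and 5302 normalized counts (log2 fold change -1.15, SE 0.13, limma adjusted p = 0.0132). TJP3, which encodes ZO-3, a relative of ZO-1 found mainly in epithelia, went from 2171, 2549 and 2749 to 1555, 518 and 570 (-1.68, SE 0.41, limma adjusted p = 0.0412). INADL, now called PATJ, is a polarity scaffold and fell by 0.79 on the log2 scale (SE 0.24, limma adjusted p = 0.0494). Those that rose were CLDN2, JAM2, an adhesion protein of endothelium and other cells, and AMOTL1, an angiomotin of the junction, the latter from 2295, 1517 and 1460 to 3351, 3292 and 3189 (0.93, SE 0.20, limma adjusted p = 0.0404). JAM2 was low, at 20.9, 11.2 and 10.0 against 29.7, 38.7 and 44.6 normalized counts (1.41, SE 0.40, limma adjusted p = 0.0445). None of the 34 genes was called by limma without wild-type sample 2 (8 lower and 5 higher at an unadjusted p under 0.05) or without wild-type sample 3 (10 and 4), and CLDN7 alone was called without mutant sample 2 or 3. The share of all genes called in these fits was not counted. INADL was not called without wild-type sample 1 (-0.72, limma adjusted p = 0.0749). Without both samples numbered 1 the log2 fold changes were -1.17 for LSR, -2.28 for TJP3, -0.98 for INADL, 2.32 for CLDN2, 1.88 for JAM2 and 1.12 for AMOTL1, all called.

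The counts by role stand beside 10.0% of all genes called lower and 17.3% higher. By role, 2 of the 9 tested claudins were lower (CLDN7 and CLDN4), 1 was higher (CLDN2) and 6 were not called. Beside CLDN12, CLDN3 and CLDN1 these were CLDN15 at -0.65 (limma adjusted p = 0.110), CLDN23 at 1.23 (0.105) and CLDN6 at 0.47 (0.245). Without both samples numbered 1, in a fit that called 29.1% of all genes lower and 53.1% higher, these 3 were called. CLDN15 was then at -0.63 (limma adjusted p = 0.00934), CLDN23 at 2.12 (2.41e-05) and CLDN6 at 0.93 (0.000112). CLDN23 was also called without wild-type sample 1 alone (1.69, 0.0319) or mutant sample 1 alone (1.65, 0.0355). CLDN15 was called without mutant sample 1 alone (-0.80, 0.0461). Of 3 MARVEL genes OCLN was lower, and MARVELD2, the tricellulin gene next to OCLN on chromosome 5, was at 0.65 (limma adjusted p = 0.0870) and MARVELD3 at 0.11. Of 7 immunoglobulin-like genes F11R and LSR were lower, JAM2 was higher, and CXADR, the coxsackie and adenovirus receptor, was at -0.55 (limma adjusted p = 0.0756) with no overlap between the lines. Of 15 plaque genes TJP3, INADL and CGN were lower and TJP1 and AMOTL1 higher. MAGI3 was at 1.37 (limma adjusted p = 0.0518) and CGNL1, the paralogue of CGN, at 0.07 (limma adjusted p = 0.818). Without both samples numbered 1, MARVELD2 (1.01, limma adjusted p = 6.78e-05), MARVELD3 (0.58, 0.00278), CXADR (-0.43, 0.0295) and MAGI3 (2.03, 1.14e-06) were called, and CGNL1 was not (-0.04, 0.738). MARVELD2 was also called without wild-type sample 1 alone (0.80, 0.0484) or mutant sample 1 alone (0.87, 0.0179), and MAGI3 without wild-type sample 1 alone (1.89, 0.00509). TJP1 and TJP3 differed in direction. The log2 ratio of TJP3 over TJP1 was -0.53, 0.65 and 0.88 in wild-type and -1.04, -3.17 and -2.92 in mutant samples, a difference of -2.71 without overlap (exact permutation p = 0.1), and -3.81 without the samples numbered 1.

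**Figure D4:**
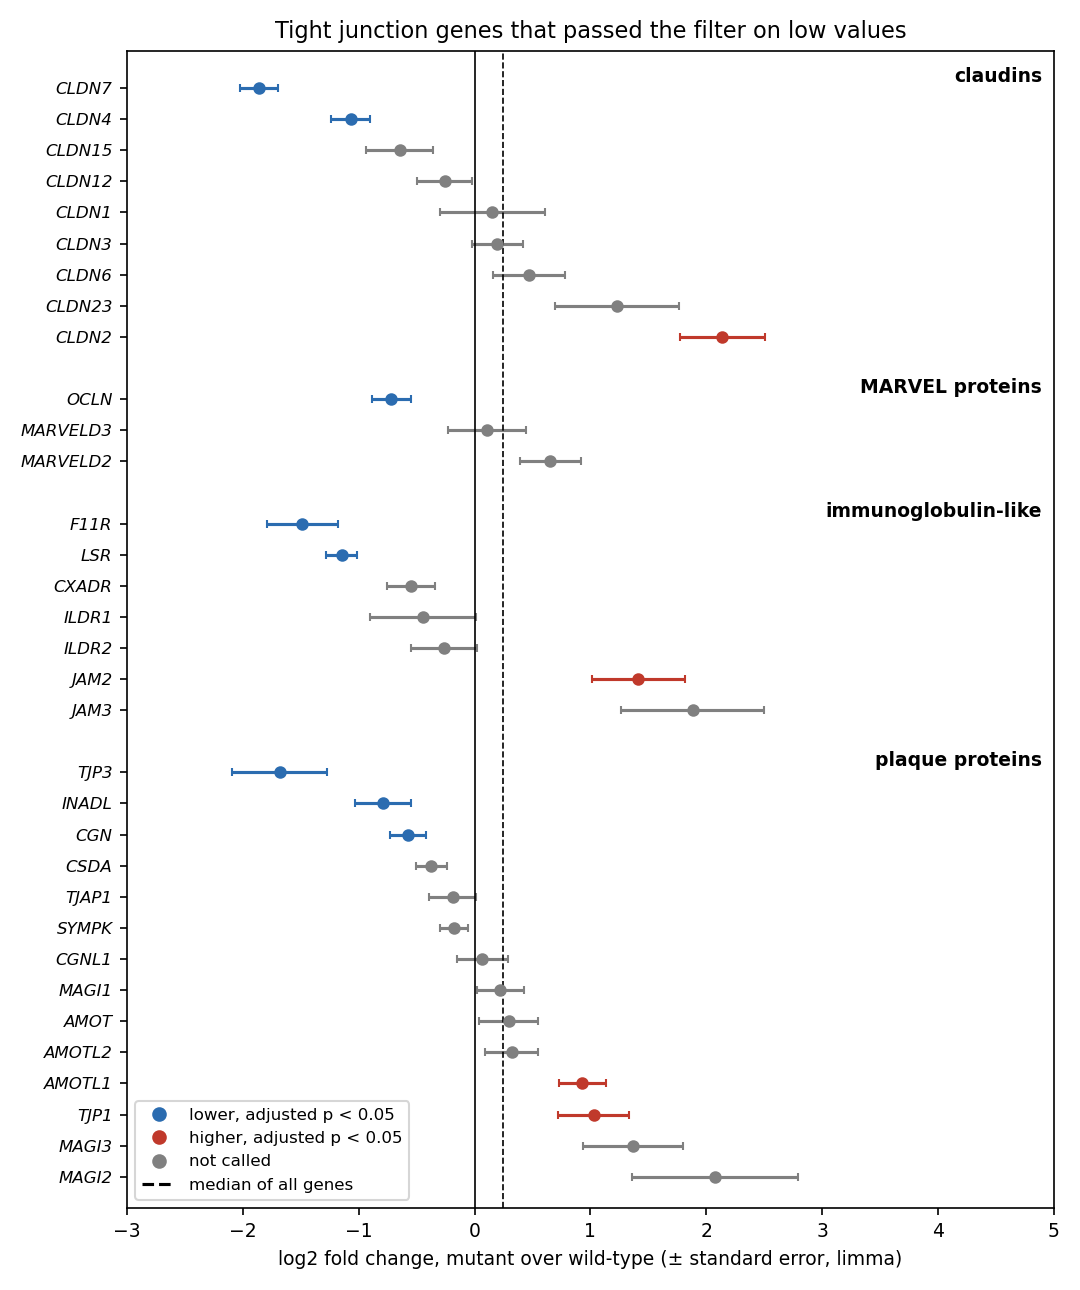
Log2 fold change (mutant over wild-type, limma, bars are the standard error) of the tight junction genes tested, all but 1 of the 34, grouped by kind of protein and coloured blue for called lower (8), red for called higher (4) and grey for not called. The dashed line is the median of all genes, 0.24, and genes of each kind fall on both sides of it. Of all genes tested, 10.0% were called lower and 17.3% higher.

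Partners and regulators of these genes were taken from a list of 16, of which 13 were tested, 6 were lower, 1 was higher and 6 were not called. Of all genes tested, 10.0% were lower and 17.3% higher. EPCAM, which binds claudin-7 and protects it from degradation, had 9690, 7854 and 7186 normalized counts in wild-type and 3266, 5523 and 5521 in mutant samples (log2 fold change -0.82, SE 0.24, limma adjusted p = 0.0462). In contrast to F11R and TJP1, its gap was widest in the samples numbered 1 (-1.57 against -0.51 and -0.38). PRSS8, the prostasin gene, fell by 2.41 on the log2 scale (limma adjusted p = 0.0325), and SPINT2, whose product inhibits proteases that cleave EpCAM, fell by 1.32 (limma adjusted p = 0.0197). ST14, the matriptase gene, was at -0.59 (limma adjusted p = 0.172) and SPINT1 at -0.48 (0.0758). Among transcription factors, ELF3 fell by 2.83 (limma adjusted p = 0.00597). GRHL2, a grainyhead factor known to activate claudin genes, was low, at 61.4, 35.4 and 28.3 normalized counts in wild-type and 6.96, 3.32 and 4.25 in mutant samples (-2.84, limma adjusted p = 0.0266). Of the repressors of claudin and occludin genes, ZEB1 rose from 984, 813 and 753 to 1849, 1409 and 1226 (0.80, limma adjusted p = 0.0428), while SNAI1 fell by 1.27 (limma adjusted p = 0.0410) and SNAI2 was at -0.36 (0.269). ZEB1 and SNAI1 thus moved in opposite directions. KLF5 (0.18), CDX2 (1.06) and HNF4A (2.06), factors of gut epithelium, did not pass, and ZEB2 was below the filter. CDX2 and HNF4A were called without wild-type sample 1 alone (1.48, limma adjusted p = 0.00837, and 2.90, 0.00977) and without both samples numbered 1 (1.62, 6.10e-06, and 3.31, 1.12e-05). Without both, SPINT1 (-0.68, limma adjusted p = 2.54e-05) and SNAI2 (-0.51, 0.00222) were called too, making 8 lower and 3 higher. That fit called 29.1% of all genes lower and 53.1% higher. EPCAM was then at -0.44, PRSS8 at -3.16, SPINT2 at -1.58, ELF3 at -2.88, GRHL2 at -2.78, SNAI1 at -1.72 and ZEB1 at 0.75. SPINT1 was also called without mutant sample 1 alone (-0.66, limma adjusted p = 0.00675), and EPCAM was not called without wild-type sample 1 (-0.70, 0.0709). With edgeR, where ZEB1 was not called, 6 were lower and 0 higher (1 higher at an unadjusted p under 0.05). EdgeR called 11.2% of all genes lower and 12.3% higher. None of the 13 was called by limma without wild-type sample 2 or 3 (6 lower and 1 higher at an unadjusted p under 0.05 in each), and ELF3 alone was called without mutant sample 2 or 3. How many of all genes were called in these fits was not counted.

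Position on the chromosome was described with the 20 nearest tested genes around each member, with no test. Among all genes tested, 10.0% were called lower and 17.3% higher. Around CLDN7 11 of 20 were called lower and 1 higher, over a span of 0.368 Mb, with a median log2 fold change of -0.93. They included both immediate neighbours, C17orf81 (the older symbol of ELP5) at -0.89 and SLC2A4 at -0.96. Around F11R 9 of 20 were lower and 0 higher, with a median of -0.54 over 1.07 Mb. Below the median of all genes were 16 of 20 around CLDN7, 17 around F11R, 15 around CGN and 14 around CLDN4. There were 13 around CLDN3, 12 around TJP1, 7 around CLDN1, 6 around CLDN12 and 3 around OCLN. By this measure CGN and CLDN4 lay close to CLDN7. Around OCLN 0 of 20 were lower and 1 was higher, with a median of 0.49, so that OCLN fell among genes of which none was called lower. Around CLDN4 4 were lower and 3 higher (median -0.13), around CGN 3 and 1 (0.01) and around TJP1 1 and 2 (0.10, over 9.60 Mb). Around CLDN3, CLDN12 and CLDN1, which were not called, 5, 2 and 4 genes were lower and 4, 10 and 6 higher. The windows of CLDN3 and CLDN4 share most of their genes, and CLDN4 is itself among the 5 lower around CLDN3.

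**Figure D5:**
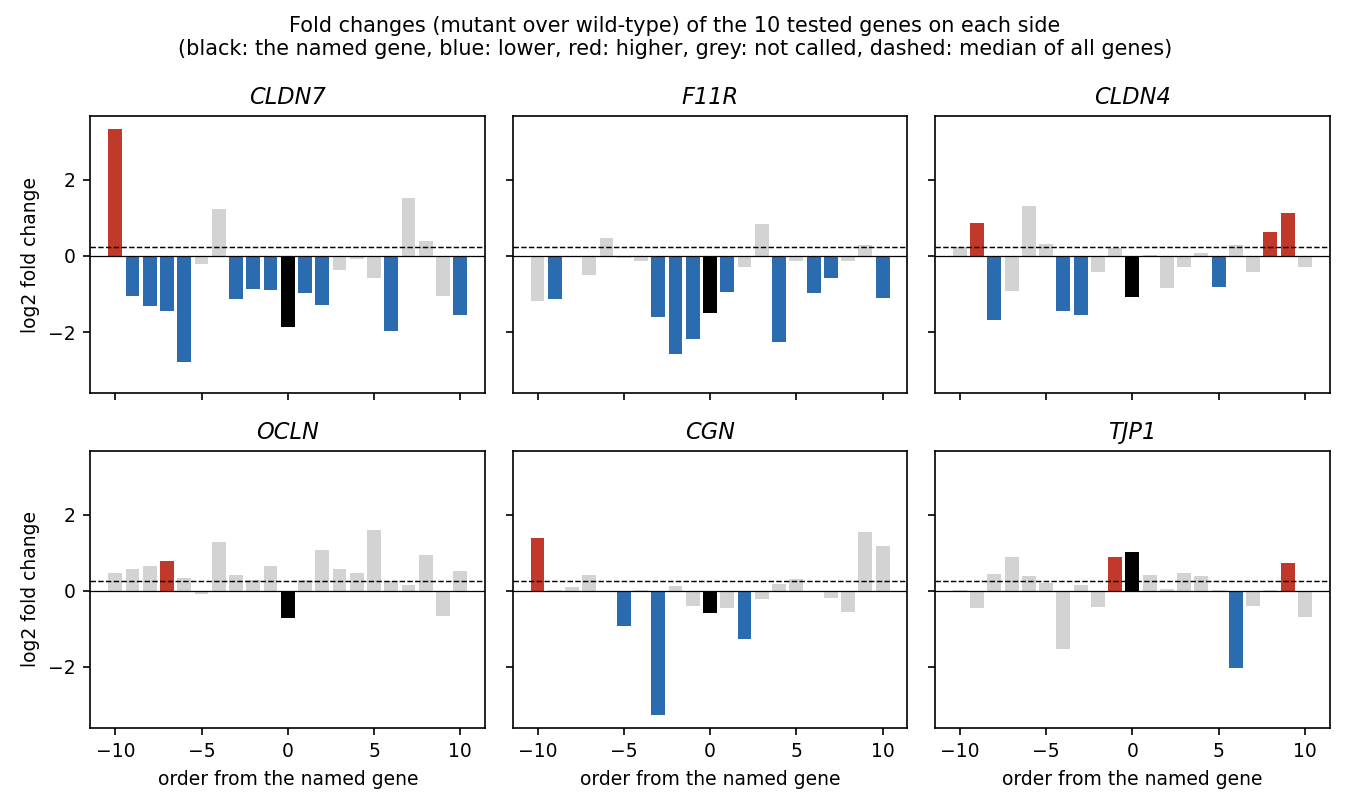
Log2 fold change (mutant over wild-type) of the 10 tested genes on each side of CLDN7, F11R, CLDN4, OCLN, CGN and TJP1 (black), in chromosome order, blue where called lower, red where called higher and grey where not called, with the median of all genes dashed. Blue bars are frequent around CLDN7 (11 of 20) and F11R (9 of 20) and absent around OCLN, beside 10.0% of all genes called lower.

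Genes with a pattern like that of CLDN7, the member with the smallest p, were ranked by the root mean square difference of centred log2 values over the 6 samples, among 11788 genes that averaged 100 normalized counts or more. The nearest were MIR614 (0.165), CD164L2 (0.176), ABCA7, a lipid transporter (0.196), LAMA3, a laminin chain (0.215), and TRIM29 (0.257). Their log2 fold changes lay between -1.57 and -1.74, and all lie on other chromosomes than CLDN7. Both samples numbered 1 stayed with their line in these genes, as they did in CLDN7, which the ranking over the same 6 samples selects for. The pattern mostly restates the difference between the 2 lines, and no p-value was attached to it.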

How the data were processed

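RNA of HCT116 cells was sequenced from 3 wild-type and 3 mutant samples. Per the labels and the methods, ribosomal RNA was removed with Ribo-Zero, although the molecule field names polyA RNA. Reads were mapped by the authors to hg19 with TopHat2 2.1.0 (the processing notes also name CASAVA 1.8.2), counted per gene with htseq-count and compared with DESeq. The versions of the counter and of DESeq and the gene annotation are not given in the sources used here. The deposited signal values are the authors' gene counts over a size factor, 1 for each sample. One column, mutant sample 2, is recorded under another unit name because of a title line, and it holds the same deposited normalized counts. Each sample's values were multiples of 1 step (within 0.001 for all values), and the step was read as 1 read. This gave size factors of 0.815, 1.16 and 0.600 in wild-type and 1.58, 0.904 and 0.942 in mutant samples. The table also holds the authors' ratio and p-values, which were not used.

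The 14539 genes that averaged 10 normalized counts or more were fitted with limma 3.58.1 (eBayes with a trend, R 4.3.3) on log2(value + 1) with the line as the only term, two-sided, and called at a Benjamini-Hochberg adjusted p under 0.05. The pseudocount understates the change of low genes. On recovered reads edgeR 4.0.16 (quasi-likelihood) and DESeq2 1.42.0 were run. Other alternatives changed the scaling, the filter, the pseudocount and the samples, or added a replicate block. The scripts were tested on simulated data. Some genes of the lists are counted but not reported singly here. Single values and ratios were tested by exact permutation over samples. Of the symbols, 15673 matched GENCODE 44 (GRCh37) directly and 1477 through older names in RefSeq, and 1086 were not matched. Levels per kb use the length of the canonical transcript. Genes named are the 9 members, called genes of the tight junction list or others of it with values, the list of partners and regulators, and the 5 genes most like the member with the smallest p. MAGI1, ILDR1 and the chromosomal neighbours are named for their values. The members, lists and ratios were chosen with earlier results of these data known. Counting error was not added to the values, and reads are not independent molecules.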

Additional observations from a re-analysis of the deposited data

How the results depend on the processing

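The 6 called genes kept their direction under all 16 alternatives, with log2 fold changes of -2.09 to -1.74 for CLDN7, -1.30 to -1.001 for CLDN4, -2.0005 to -1.31 for F11R and -0.83 to -0.51 for CGN. Whether samples of the same number were prepared together is not given in the sources used here, and the main fit used no pairing. The correlations of deviations from the line means were -0.534, -0.430 and -0.313 for same-numbered samples. For samples of different number they ranged from -0.421 to 0.515. Both samples numbered 1 stood apart, so these correlations cannot decide on pairing. Same-number differences compare samples known to share only a number. With the replicate block 0 of the 9 genes were called in either direction (adjusted p = 0.168 for all 6 in limma, with 5 lower and 1 higher at an unadjusted p under 0.05), and 0 of the tight junction list (9 lower and 5 higher unadjusted) and 0 of the partners (6 and 1). In that fit LSR, CLDN2 and PRSS8 had the same adjusted p of 0.168 (limma). The share of all genes called with the block was not counted, so these counts do not single out the genes listed. Leaving out each sample in turn gave 0 to 5 members lower and 0 to 1 higher, 0 to 10 and 0 to 10 of the tight junction list, and 0 to 7 and 0 to 3 of the partners and regulators. Without wild-type sample 2, CLDN4, OCLN and F11R shared 1 limma adjusted p, 0.161, with TJP3, CLDN2 and PRSS8. The share of all genes called with 1 sample left out was not counted, so these ranges do not single out the genes listed. With edgeR 0 members and 0 partners were called higher, where limma has 1 each. The partners called higher were also 0 with TMM and with upper-quartile factors. Without both samples numbered 1 the tight junction list had 12 lower and 15 higher, and the partners 8 and 3, where 29.1% of all genes were lower and 53.1% higher. With DESeq2 the tight junction list had 12 lower and 6 higher, beside 8 and 4 in limma. DESeq2 called 20.6% of all genes lower and 21.7% higher. Signs turned for genes that were not called. CLDN1 was at -0.071 with TMM factors, -0.024 with upper-quartile factors, -0.13 without both samples numbered 1 and at -0.28 to 0.47 with 1 sample left out. CLDN3 was at -0.028 with edgeR, -0.038 with DESeq2 and -0.035 with TMM factors. With edgeR, DESeq2, TMM and upper-quartile factors in turn, MARVELD3 was at -0.16, -0.17, -0.12 and -0.074, CGNL1 at -0.16, -0.17, -0.17 and -0.12, and KLF5 at -0.043, -0.053, -0.052 and -0.0035, and MAGI1 was at -0.012, -0.020 and -0.0090 in the first 3. CGNL1 was at -0.044 without both samples numbered 1. With 1 sample left out, MARVELD3 ranged from -0.10 to 0.43, CGNL1 from -0.0037 to 0.14 and ILDR1 from -0.75 to 0.041. The cause of these changes was not tested. CLDN1 had 19 to 38 reads a sample in wild-type cells.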
